A study of Mus musculus with 899 samples.

Results

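The microRNA (miRNA) mmu-miR-103-3p and mmu-miR-107-3p were followed in the plasma of irradiated and sham-irradiated mice, as 2 of the 1915 mature miRNA counted by small RNA sequencing. Both were chosen by name, after they had been selected on their values in the comparison of irradiated with sham C3H mice at day 2, where both were lower after irradiation. That comparison is therefore described below without a test. Plasma came from 196 gnotobiotic young adult mice (kept with a defined flora) of the C3H and C57Bl/6 strains, of both sexes, in 899 samples. Irradiated mice received a single dose to the whole thorax with the rest of the body shielded, and sham mice were not exposed. Of the C3H mice, 64 were irradiated and 32 were sham-irradiated, and of the C57Bl/6 mice 68 and 32. Blood was drawn before irradiation, at day 2 or day 5 (different mice), at month 1, and in the mice followed further at monthly intervals to month 4 in C3H and month 6 in C57Bl/6. Live mice were bled behind the eye and euthanized mice from the heart, and the labels do not say which samples are terminal bleeds. The late irradiated groups hold the survivors, 17 C3H mice at month 4 and 8 C57Bl/6 mice at month 6.

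miR-103 and miR-107 are encoded inside introns of the pantothenate kinase genes, whose products catalyse the committed step of coenzyme A synthesis. They are known from liver and fat as regulators of insulin sensitivity through caveolin-1, and they can repress Dicer, the enzyme that releases mature miRNA from their hairpins. miRNA reach plasma in vesicles and protein complexes from blood cells and solid organs, so a plasma level does not name the tissue of origin.

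RefSeq's mouse annotation (GRCm38.p6, the genome release that mm10 carries) gives the same mature miR-103-3p from 2 hairpins. Mir103-1 lies on the plus strand at chr11:35782396-35782481 in an intron of Pank3, and Mir103-2 on the plus strand at chr2:131288052-131288137 in an intron of Pank2. Mir107 lies on the minus strand at chr19:34820687-34820773 in an intron of Pank1. In the GENCODE annotation of this build each hairpin was on the strand of its host gene and overlapped no exon of any host transcript that spans it. Introns were numbered in 1 transcript of each host, and there each hairpin fell in intron 5. The mature sequences are shown first because the counts of the 2 miRNA can be told apart at a single base. The seed (bases 2 to 8, which pair with targets) is in capitals.
mmu-miR-103-3p: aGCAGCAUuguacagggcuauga
mmu-miR-107-3p: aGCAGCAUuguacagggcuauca
The same 23-base sequences are shown again with the differing base in capitals.
mmu-miR-103-3p: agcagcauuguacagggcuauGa
mmu-miR-107-3p: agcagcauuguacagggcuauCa
The difference is G22C, counted from 1 at the 5′ end and written with the base of miR-103-3p first. A read that ends before base 22 fits both miRNA. The seed is shared by no other name among the 1679 mature mouse miRNA of the RefSeq table. The opposite arms of the hairpins, which are usually degraded, are shown because all 3 loci differ there, by G1A between the first and the second and by C16U between the second and the third (positions from the 5′ end, the earlier-listed arm first).
mmu-miR-103-1-5p: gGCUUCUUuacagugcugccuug
mmu-miR-103-2-5p: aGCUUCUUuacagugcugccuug
mmu-miR-107-5p: aGCUUCUUuacaguguugccuug
The relatives (the miR-15 family and others of the group it forms with miR-107) carry the same AGCAGC run shifted by a base, as 3 of them show.
mmu-miR-16-5p: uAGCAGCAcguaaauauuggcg
mmu-miR-195a-5p: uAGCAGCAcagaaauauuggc
mmu-miR-322-5p: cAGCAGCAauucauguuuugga

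miR-103-3p was a moderately abundant plasma miRNA and miR-107-3p was near the limit of detection. miR-103-3p had 1513276 reads over all samples, or 0.0993% of all reads, and was found in every sample with 39 to 23201 reads (median 1124). Its median level was 795 CPM (counts per 1000000 reads, with library sizes corrected by the trimmed mean of M-values, TMM), rank 64 of 1915. miR-107-3p had 5322 reads, with a median of 2 per sample and a range of 0 to 252. It was absent from 286 samples, had 1 or 2 reads in 189, and reached 3 reads, the limit that a count of 0 allows, in 424. miR-107-3p thus made up 0.351% of the reads of both, or 1 read for every 284 of miR-103-3p. Counting intervals and limits cover counting error only, since the reads were amplified and the use of molecular identifiers in the deposited counts is not given in the sources used here.

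**Figure D1:**
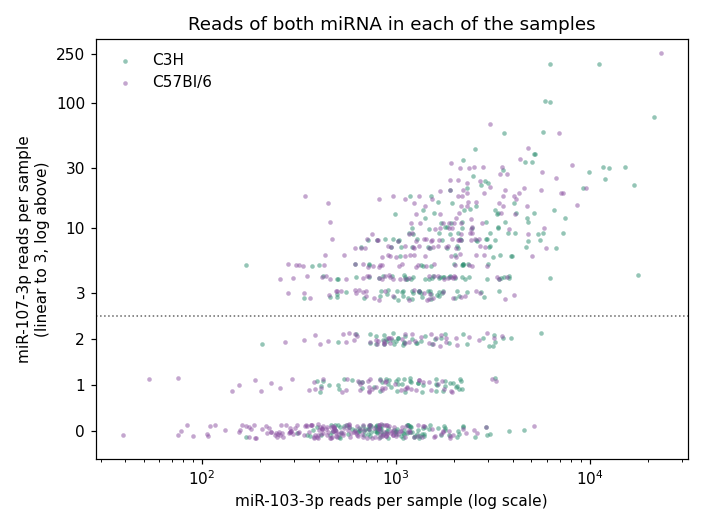
Reads of miR-107-3p (y axis, linear to 3 and logarithmic above, with a small random shift up or down to separate points) against reads of miR-103-3p (x axis, log scale), 1 point for each of 899 plasma samples, coloured by strain, with the dotted line between 2 and 3 reads. miR-103-3p lies between 39 and 23201 reads, while 475 points of miR-107-3p lie below the line.

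Whether miR-107-3p was seen at all moved with depth. The samples had 206490 to 11814515 reads (median 1475030), and 3 reads correspond to 2.03 CPM at the median depth and to 14.5 CPM in the shallowest sample. miR-107-3p was counted in 43.3% of the 178 samples under 1000000 reads and in 83.2% of the 220 samples of at least 2000000. The median of a group exceeded 2.03 CPM in 13 of the 32 groups of strain, treatment and time. In the 139 samples with at least 10 miR-107-3p reads, its share of the reads of both ranged from 0.13% to 5.03% (median 0.663%), a set that leaves out the samples with low shares by construction. Since miR-107-3p was under 3 reads in 475 samples, the ratio of the members was not compared between groups.

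The arms opposite to the members were hardly present. miR-103-1-5p had 26 reads in 13 samples, miR-103-2-5p 204 reads in 72 samples and miR-107-5p 200 reads in 71 samples. None of the 3 passed the filter on low counts, so they were not tested, and they do not tell which locus gave the miR-103-3p reads. miR-107-5p, with 200 reads against 5322 for miR-107-3p, and miR-103-2-5p, with 204 against 1513276 from both miR-103 loci, stood in different proportions to their partners.

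Before irradiation, miR-103-3p was lower in C57Bl/6 than in C3H plasma. In the later-irradiated and the sham C3H mice its log2 CPM ranged from 8.52 to 10.92 (median 9.78, n = 64) and from 9.06 to 10.90 (median 10.16, n = 32). In the corresponding C57Bl/6 groups it ranged from 8.24 to 10.88 (median 9.63, n = 64) and from 7.91 to 11.24 (median 9.62, n = 32). The ranges of the strains overlap over most of their extent. The log2 difference, C57Bl/6 minus C3H, was −0.29 (SE 0.09, adjusted p = 0.00506, edgeR), while 50.7% of all tested miRNA differed between the strains by this test. miR-107-3p did not pass, at −0.06 (SE 0.30, adjusted p = 0.908). All 5 red blood cell miRNA of the marker list (miR-451a, miR-144-3p, miR-144-5p, miR-486a-5p and miR-486b-5p) were also lower in C57Bl/6 at this time, with a median of −0.61, and their part in the strain difference of miR-103-3p was not tested. With library scaling computed without these 5, the strain difference of miR-103-3p was −0.25 (adjusted p = 0.0134, edgeR).

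In C57Bl/6, females had more miR-103-3p in plasma than males before irradiation, and in C3H the difference did not pass the threshold. In C57Bl/6 the log2 CPM of the females ranged from 8.46 to 11.24 (median 9.84, n = 48) and of the males from 7.91 to 10.78 (median 9.56, n = 48). The difference, female minus male, was 0.40 (SE 0.13, adjusted p = 0.0151, edgeR), where 14.7% of miRNA differed between the sexes. In C3H the females ranged from 8.997 to 10.92 (median 10.09, n = 48) and the males from 8.52 to 10.90 (median 9.78, n = 48), a difference of 0.31 (SE 0.13, adjusted p = 0.0718, edgeR) where 14.5% of miRNA passed. Whether the sex difference differs between strains was not tested. For miR-107-3p the differences were −0.35 (SE 0.42, adjusted p = 0.632, edgeR) in C3H and 0.00 (SE 0.44, adjusted p = 1, edgeR) in C57Bl/6.

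Levels in sham mice also differed between the bleeds. Over the 6 later C3H bleeds and the 8 later C57Bl/6 bleeds, sham levels of miR-103-3p differed from the first bleed (edgeR F test, adjusted p = 0.00433 in C3H and 1.53e-16 in C57Bl/6), and so did those of miR-107-3p (adjusted p = 0.00011 and 4.41e-06). The C3H tests hold the sham samples of day 2, part of the comparison on which the members were selected. They are therefore not independent of the choice. The C3H call of miR-107-3p was lost without the 5 libraries of at least 100 of its reads, 4 of which are sham C3H samples (adjusted p = 0.146, edgeR). Such a change was common, at 46% of miRNA in C3H and 62.9% in C57Bl/6. In sham C57Bl/6 mice miR-103-3p had a median log2 CPM of 9.11 (7.88 to 10.11, n = 16) at day 2 and 8.91 (8.19 to 9.99, n = 16) at day 5, and it stood at 10.63 (9.81 to 11.68, n = 16) at month 6. Relative to the first bleed these were differences of −0.54 (SE 0.19), −0.64 (SE 0.19) and 1.01 (SE 0.19). At the bleeds between day 5 and month 6 they ranged from −0.35 (SE 0.19) at month 4 to 0.48 (SE 0.19) at month 3. In sham C3H mice the medians lay between 9.72 and 10.28 until month 3 and were 10.73 (9.52 to 11.44, n = 16) at month 4. Differences from the first bleed ranged from 0.04 (SE 0.15) at month 1 to 0.13 (SE 0.19) at day 5 over the bleeds to month 1. They were −0.34 (SE 0.19) at month 2, −0.38 (SE 0.19) at month 3 and 0.47 (SE 0.19) at month 4. The last bleed was the highest in both strains, at month 4 in one and month 6 in the other. The labels name neither the sequencing run nor the samples drawn from the heart, so the time of the bleed cannot be told apart from the run or, at the last bleeds, from the site of the bleed.

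After the first bleed, sham levels of both members differed between the strains. The test over the later bleeds asks whether the strains differ at any of them, and not whether their course over time differs. Over the 6 shared bleeds after the first, the strain difference had an adjusted p of 1.55e-18 for miR-103-3p and 1.65e-05 for miR-107-3p (edgeR F test), where 54.9% of miRNA passed. C57Bl/6 sham mice had less miR-103-3p at day 2 (−1.05, SE 0.22), day 5 (−1.21, SE 0.22), month 1 (−0.63, SE 0.15) and month 4 (−1.26, SE 0.22), with differences of 0.12 (SE 0.22) at month 2 and 0.42 (SE 0.22) at month 3. For miR-107-3p the same differences ranged from −2.70 (SE 0.73) at day 2 to 1.04 (SE 0.61) at month 3. The sham C3H samples of day 2 belong to the comparison on which the members were selected, so these tests are not independent of the choice.

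**Figure D2:**
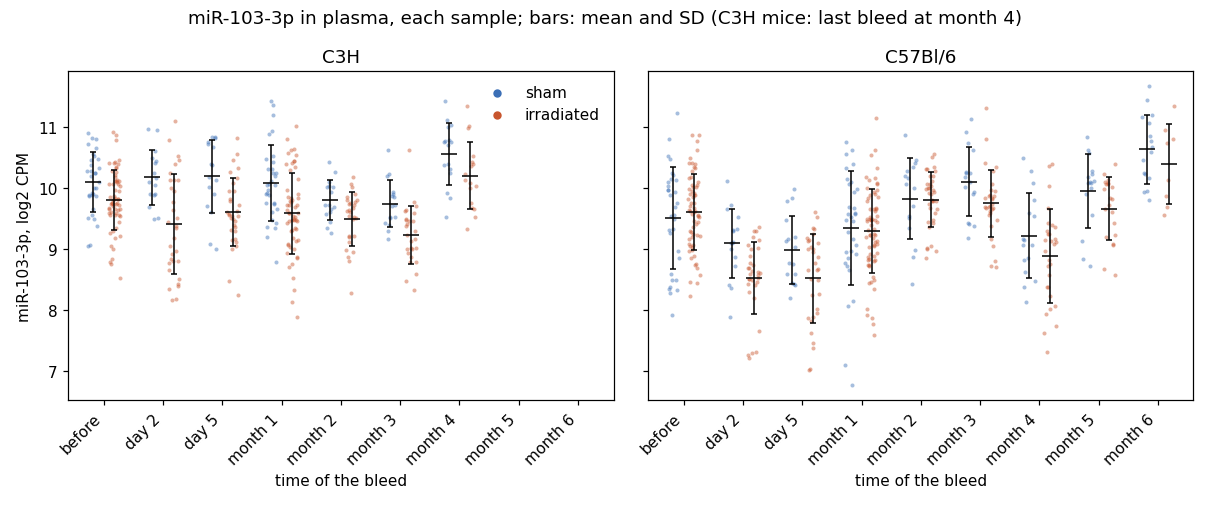
Log2 CPM of miR-103-3p (y axis) in each plasma sample by time of the bleed (x axis), sham mice in blue and irradiated mice in orange, with black bars for the mean and SD of each group of 8 to 68 samples. Irradiated and sham samples overlap at every time, and the group means span 2.12.

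The 32 group means of miR-103-3p spanned 2.12 on the log2 scale. C57Bl/6 sham at month 6 (10.64, SD 0.57, n = 16) and C3H sham at month 4 (10.57, SD 0.51, n = 16) stood at the top. Irradiated C57Bl/6 at day 2 (8.53, SD 0.60, n = 32) and day 5 (8.52, SD 0.73, n = 32) stood at the bottom. No 2 neighbours in this order were further apart than the larger of their SDs, the widest gap being 0.36. Within groups miR-103-3p varied by an SD of 0.62 and miR-107-3p by 1.03, where the latter includes the noise of very low counts.

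The comparison that had been used to choose the members was C3H at day 2. miR-103-3p ranged from 8.16 to 11.10 log2 CPM in the irradiated mice (median 9.36, n = 32) and from 9.49 to 10.98 in the sham mice (median 10.14, n = 16). Of the irradiated mice, 18 lay below the lowest sham mouse, and the highest irradiated mouse lay above the highest sham mouse. The log2 difference was −0.61 (SE 0.19). miR-107-3p had 0 to 13 reads in the irradiated mice (median 1.5) and 1 to 102 reads in the sham mice (median 5.5). It was at 0 in 14 of 32 irradiated and in 0 of 16 sham samples, with a log2 difference of −1.70 (SE 0.55). A single sham library holds 102 of the 242 sham reads. Without the 5 libraries of at least 100 miR-107-3p reads, of which it is one, the difference was −1.24. In this comparison 4.97% of miRNA passed the threshold, and no weight is put on the members' values, since they were the reason for the choice.

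In the comparisons not used for the choice, the difference of miR-103-3p, irradiated minus sham, was negative in all 13 and past the threshold in 3 of them. In C3H at day 5 it ranged from 8.24 to 10.82 log2 CPM after irradiation (median 9.55, n = 32) and from 9.01 to 10.84 after sham treatment (median 10.28, n = 16). The difference was −0.59 (SE 0.19, adjusted p = 0.0434, edgeR), with 28 of 32 irradiated mice below the sham median. In C3H at month 1 it ranged from 7.88 to 11.02 (median 9.57, n = 58) and from 8.79 to 11.44 (median 10.06, n = 32). The difference was −0.48 (SE 0.13, adjusted p = 0.0177, edgeR), with 45 of 58 below the sham median. In C57Bl/6 at day 2 it ranged from 7.21 to 9.36 (median 8.61, n = 32) and from 7.88 to 10.11 (median 9.11, n = 16). The difference was −0.56 (SE 0.19, adjusted p = 0.0389, edgeR), with 27 of 32 below the sham median. The groups overlapped in all 3. The shares of all miRNA past the threshold, in either direction, were 3.11%, 3.31% and 6.63% in these comparisons, and the median log2 difference of all tested miRNA was 0.00, −0.05 and −0.06.

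Each of these 3 calls was lost under some alternatives. Over 18 alternatives each, the difference stayed negative in all, while the call held in 11 for C3H day 5, in 11 for C3H month 1 and in 8 for C57Bl/6 day 2. C3H mice later irradiated already stood at a difference of −0.28 before irradiation (SE 0.13, unadjusted p = 0.0302, adjusted p = 0.695, edgeR). In C57Bl/6 the difference at that time was 0.01 (SE 0.13, adjusted p = 0.986, edgeR). With the mouse as a block, so that each value is a change from the own first sample, the C3H differences shrank to −0.35 at day 5 (adjusted p = 0.693, limma-voom) and −0.18 at month 1 (adjusted p = 0.881, limma-voom). The C57Bl/6 day 2 difference became larger, at −0.90 (adjusted p = 0.0122, limma-voom). Before irradiation 0% of miRNA passed the threshold in C3H (32 of 483 at an unadjusted p under 0.05) and 0% in C57Bl/6 (25 of 483).

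Single mice were also set against their own first sample. From its own first sample to day 2, miR-103-3p was lower in 31 of 32 irradiated C57Bl/6 mice (mean change −1.35, SD 0.72) and in 13 of 16 sham mice (mean change −0.55, SD 1.02). In C3H it was lower at day 2 in 23 of 32 irradiated mice (mean −0.47, SD 0.98) and in 7 of 16 sham mice (mean −0.11, SD 0.56). These C3H samples of day 2 belong to the comparison used for the choice, so no weight is put on their counts. At day 5 miR-103-3p was lower in 27 of 32 irradiated and 12 of 16 sham C57Bl/6 mice, and in 18 of 32 irradiated and 7 of 16 sham C3H mice. At month 1 the counts were 34 of 58 irradiated and 19 of 32 sham C3H mice, and 39 of 64 irradiated and 18 of 32 sham C57Bl/6 mice with a first sample. At day 2 and day 5 most C57Bl/6 mice of both treatments were thus below their own first sample.

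**Figure D3:**
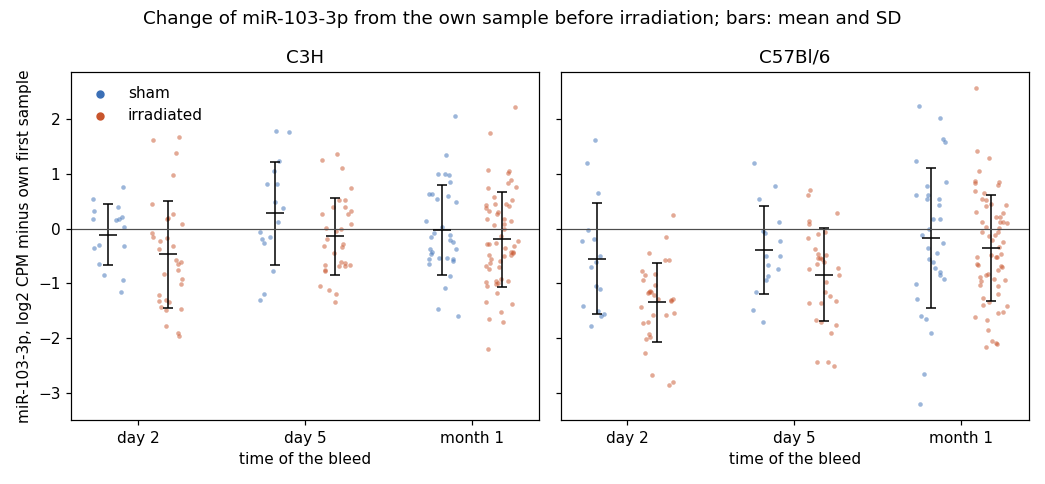
Change of miR-103-3p from the own sample before irradiation (y axis, log2 CPM) at day 2, day 5 and month 1 (x axis), 1 point a mouse, sham in blue and irradiated in orange, with black bars for the mean and SD. Irradiated C57Bl/6 mice at day 2 have a mean change of −1.35, and 31 of 32 lie below 0. The C3H samples of day 2 belong to the comparison used to choose the members.

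At the remaining times miR-103-3p did not pass the threshold, though under single alternatives it did in C3H at month 3 (−0.51 with only the 2 groups compared, adjusted p = 0.0239, edgeR) and in C57Bl/6 at day 5 (−0.79 in mice of title code G1 alone, adjusted p = 0.0322, edgeR). In C3H the differences were −0.28 (SE 0.19) at month 2, −0.48 (SE 0.19) at month 3 and −0.33 (SE 0.21) at month 4, where 0.621%, 2.07% and 0.414% of miRNA passed. In C57Bl/6 they were −0.41 (SE 0.19) at day 5, −0.13 (SE 0.13) at month 1, −0.08 (SE 0.18) at month 2, −0.36 (SE 0.19) at month 3, −0.30 (SE 0.19) at month 4, −0.32 (SE 0.20) at month 5 and −0.23 (SE 0.26) at month 6. The shares of all miRNA past the threshold at these C57Bl/6 times were 14.1%, 3.73%, 3.31%, 1.66%, 4.76%, 3.52% and 0.414% in that order. The adjusted p of these 10 comparisons ranged from 0.121 to 0.883 (edgeR), and 2 of them had an unadjusted p under 0.05. The bleeds after the first share mice, so the 13 negative signs are not 13 separate observations. C3H day 5 and month 1 also share mice with each other. C3H month 1 shares mice, though not samples, with the day 2 comparison used for the choice.

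miR-107-3p passed the threshold in 0 of 13 comparisons by edgeR, and in 0 under every alternative that gave a value, limma-voom included, and DESeq2 for those comparisons in which it gave an adjusted p. Its difference was negative in 10 of them and had an unadjusted p under 0.05 in 4, all of them C3H. The C3H differences were −0.39 (SE 0.58) at day 5, −0.97 (SE 0.39) at month 1, −1.27 (SE 0.57) at month 2, −1.19 (SE 0.58) at month 3 and −1.76 (SE 0.60, adjusted p = 0.191, edgeR) at month 4. It was counted in 45 of 58 irradiated and 31 of 32 sham C3H samples at month 1, in 19 of 28 and 15 of 16 at month 2, and in 13 of 17 and 16 of 16 at month 4. These detection counts are not adjusted for depth, with which detection moved. Of the 552 sham reads at month 4, 206 and 105 came from 2 libraries. In C57Bl/6 the differences ranged from −0.66 (SE 0.53) at month 2 to 0.21 (SE 0.74) at day 2, where miR-107-3p was at 0 in 23 of 32 irradiated and in 11 of 16 sham samples. With SEs of 0.39 to 0.74, a change of the size seen for miR-103-3p was not detectable for miR-107-3p at this depth.

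**Figure D4:**
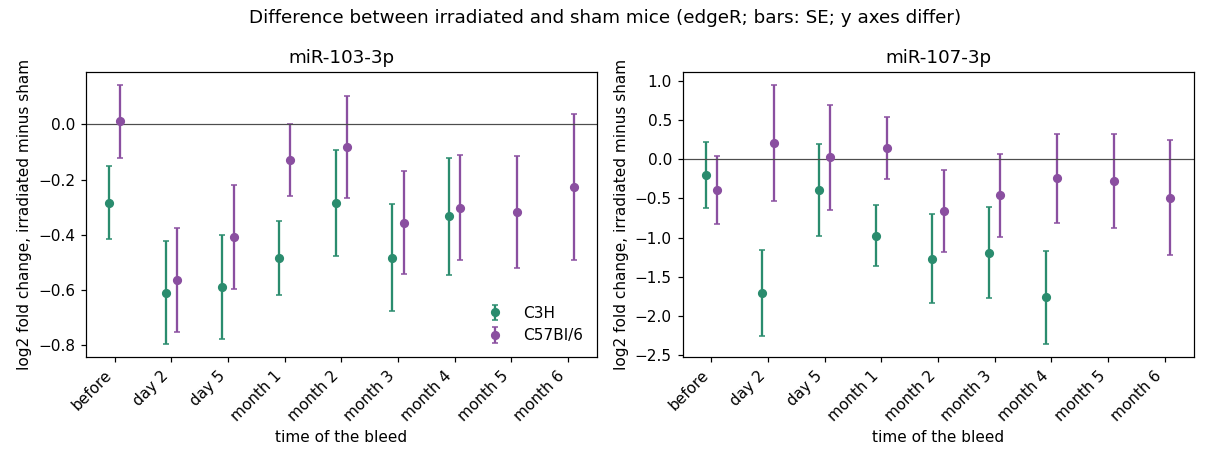
Log2 fold change of irradiated minus sham mice (y axis, scales differ between panels) for miR-103-3p and miR-107-3p by time of the bleed (x axis), C3H in green and C57Bl/6 in purple, with bars for the SE from edgeR. The values of miR-103-3p lie between −0.61 and 0.01, and the C3H values of miR-107-3p between −1.76 and −0.20 with wide errors.

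**Figure D5:**
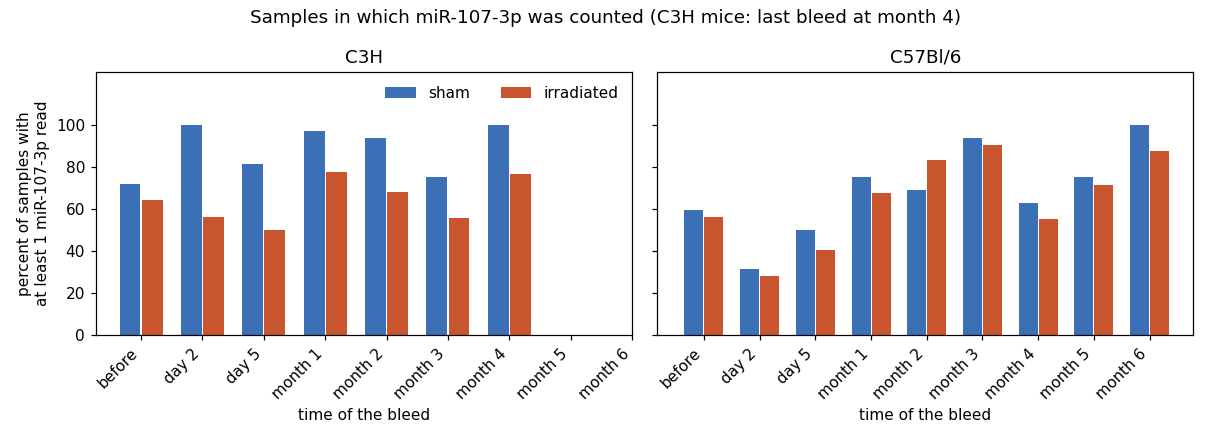
Percent of samples with at least 1 read of miR-107-3p (y axis) by time of the bleed (x axis), sham mice in blue and irradiated mice in orange, for each strain. It was counted in every sham C3H sample at day 2 and month 4 and in 28.1% of irradiated C57Bl/6 samples at day 2. The percents are not adjusted for depth.

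A difference of the irradiation effect between strains was not found. Over the 6 shared bleeds the F test gave an adjusted p of 0.923 for miR-103-3p and 0.334 for miR-107-3p (edgeR), where 4.35% of miRNA passed. For miR-103-3p the effect in C57Bl/6 minus that in C3H ranged from 0.03 (SE 0.29) at month 4 to 0.35 (SE 0.19) at month 1. For miR-107-3p it ranged from 0.41 (SE 0.89) at day 5 to 1.91 (SE 0.92) at day 2, and the F test passed in limma-voom (adjusted p = 0.016). Day 2 is among these bleeds, and the C3H values there were the reason for the choice of the members.

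A difference of the irradiation effect between the sexes was also not found. Over day 2, day 5 and month 1 the F test gave an adjusted p of 1 for both members in C3H, and of 0.867 and 0.663 for miR-103-3p and miR-107-3p in C57Bl/6 (edgeR), where 0.414% and 5.38% of miRNA passed. The C3H test holds the day 2 values on which the members were selected. The effect on miR-103-3p was −0.34 (SE 0.25) in female and −0.77 (SE 0.25) in male C3H mice at day 5, and −0.66 (SE 0.25) and −0.46 (SE 0.25) in C57Bl/6 at day 2.

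The sample titles carry a code that groups the mice, whose meaning the labels do not state, and the difference was also computed within each code. In C3H at day 5 the difference of miR-103-3p was −0.97 (adjusted p = 0.000819, edgeR) in mice of code G2 and −0.24 (adjusted p = 0.929, edgeR) in mice of code G4. In C57Bl/6 at day 5 it was −0.79 in code G1 and −0.20 in code G3, and at day 2 it was −0.66 in G1 and −0.26 in G3. In C3H at month 1 it was −0.35 in G2 and −0.56 in G4. Within codes G3 and G4, irradiated and sham mice could be compared only up to month 1, and later values within a code exist for G1 and G2 alone. Early and late differences therefore do not rest on the same mix of codes. The difference between codes was not tested.

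These relatives, which repress cell cycle genes such as cyclins, passed the threshold in 1 of 21 tests at the 3 times when miR-103-3p did, a share near the 3.11%, 3.31% and 6.63% of all miRNA. All 7 (miR-15a-5p, miR-15b-5p, miR-16-5p, miR-195a-5p, miR-322-5p, miR-497a-5p and miR-503-5p) passed the filter. In C3H 0 of 7 passed the threshold at day 5 and at month 1, with median differences of −0.07 and 0.03 beside 0.00 and −0.05 over all miRNA. In C57Bl/6 at day 2, 1 of 7 was lower, miR-195a-5p at −0.48 (adjusted p = 0.024, edgeR), and the median of the list was −0.31. In C57Bl/6 at day 5, where 14.1% of all miRNA passed, miR-195a-5p was lower at −0.53 (adjusted p = 0.00492, edgeR). There miR-503-5p was higher at 0.73 (adjusted p = 0.0137, edgeR). miR-195a-5p was also lower in irradiated C57Bl/6 mice at month 1 (−0.37, adjusted p = 0.014, edgeR) and month 4 (−0.50, adjusted p = 0.0275, edgeR), where 3.73% and 4.76% of all miRNA passed. The most abundant relative, miR-16-5p, had a median of 447200 CPM and so takes a large part of every library. Its difference was 0.24 (adjusted p = 0.574, edgeR) in C3H at day 5 and −0.16 (adjusted p = 0.629, edgeR) in C57Bl/6 at day 2. Before irradiation, 3 of the 7 were lower in C57Bl/6 (miR-15a-5p, miR-15b-5p and miR-16-5p) and 2 were higher (miR-322-5p and miR-503-5p), where 50.7% of all miRNA differed.

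Across samples, after removing the mean of each group, the miRNA most like miR-103-3p were miR-26a-5p (Pearson r = 0.678), miR-186-5p (0.605), miR-322-5p (0.597), miR-142a-5p (0.575) and miR-99b-5p (0.513), each over 899 samples. These samples share mice, depth and library preparation, so the coefficients describe these libraries. Among them miR-322-5p is a relative in seed and miR-142a-5p is made in blood cells. For miR-107-3p the highest values were lower, let-7g-5p (0.415), miR-339-5p (0.393), miR-31-5p (0.377), miR-30d-5p (0.354) and miR-141-3p (0.348), and with so few reads they are no finding. The members' own coefficient was 0.297, and 0.186 in the 424 samples with at least 3 miR-107-3p reads.

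The median summed share of leukocyte miRNA was lower after irradiation at the times when miR-103-3p passed. It was also lower at other times when miR-103-3p did not pass, C57Bl/6 at day 5 among them. The summed share of 6 leukocyte miRNA (miR-150-5p, miR-142a-3p, miR-142a-5p, miR-155-5p, miR-223-3p and miR-342-3p) had a median of 0.858% of reads (0.319% to 1.54%) in irradiated and 1.6% (0.96% to 2.81%) in sham C3H mice at day 5, where 3 of 6 were lower by the test. In C57Bl/6 at day 2 it was 1.24% (0.521% to 2.54%) against 1.76% (0.921% to 2.81%), with 2 of 6 lower, and in C3H at month 1 it was 1.27% (0.391% to 2.80%) against 1.70% (0.456% to 3.23%), with 1 of 6 lower. In C3H at day 2, the values were 0.752% (0.403% to 1.29%) and 2.16% (0.694% to 3.91%), with 4 of 6 lower. In C57Bl/6 at day 5 it was 1.23% (0.677% to 2.09%) against 2.07% (1.01% to 3.36%), with 4 of 6 lower, where 14.1% of all miRNA passed and miR-103-3p had an adjusted p of 0.121 (edgeR). At the other 4 times the share of all miRNA was 3.11%, 6.63%, 3.31% and 4.97% in the order given. miR-150-5p, which marks mature lymphocytes, was lower at all 5. Some members differed in the other direction. In C3H these were miR-342-3p at day 5 (0.09) and miR-223-3p and miR-342-3p at month 1 (0.27 and 0.04). In C57Bl/6 at day 2 it was miR-223-3p (0.14). The remaining differences of the list at these 5 times were negative. The median summed share was also lower in irradiated C3H mice at month 3 (1.70% against 1.94%) and month 4 (1.47% against 1.64%). In C57Bl/6 it was lower at month 1 (2.21% against 2.37%). Before irradiation it already stood at 1.65% against 1.75% in C3H and 2.18% against 2.45% in C57Bl/6. After irradiation it was higher than in sham mice in C3H at month 2 and in C57Bl/6 from month 2 to month 6. The coefficient of miR-103-3p with the 6 leukocyte miRNA ranged from −0.267 (miR-342-3p) to 0.575 (miR-142a-5p), and with miR-150-5p it was 0.03. The blood cell counts that the study took from these mice were not analysed here, fewer cells of a type and less miRNA from each cell cannot be told apart in the plasma counts, and the part of leukocytes in the lower miR-103-3p was not tested.

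Of the red blood cell list, 0 of 5 members passed the threshold as lower at these times. In C57Bl/6 at day 2, 4 of the 5 differences were negative, with a median of −0.35, and miR-486a-5p and miR-486b-5p stood at −0.48 each (adjusted p = 0.0709, edgeR). Their part in the difference of miR-103-3p was not tested. The summed red blood cell share had medians of 7.66% (5.37% to 13.1%) in irradiated and 7.75% (5.95% to 13.5%) in sham C3H mice at day 5, of 7.98% (2.55% to 12.8%) and 7.44% (5.10% to 12.8%) at month 1, and of 4.73% (2.83% to 8.72%) and 5.91% (3.13% to 8.77%) in C57Bl/6 at day 2. At these times 2, 0 and 0 of the 5 passed the threshold, where 3.11%, 3.31% and 6.63% of all miRNA did. The 2 were miR-144-3p (0.90) and miR-144-5p (1.14), both higher in irradiated C3H mice at day 5. There miR-451a, miR-486a-5p and miR-486b-5p differed by 0.08, 0.16 and 0.16 and did not pass. The coefficient of miR-103-3p with the 5 ranged from 0.057 to 0.159. The liver list (miR-122-5p, miR-122-3p, miR-192-5p and miR-194-5p) had 4 of 4 members higher in irradiated C57Bl/6 mice at month 5, where 3.52% of all miRNA passed. Its summed share was 2.57% (0.583% to 15.4%) against 0.775% (0.39% to 1.21%), while miR-103-3p differed by −0.32 (adjusted p = 0.453, edgeR). When miR-103-3p passed, 0 of 4 liver miRNA did in C3H at day 5, and at month 1 only miR-122-5p did, which was higher (1.33). In C57Bl/6 at day 2, miR-122-5p was lower (−1.69) and miR-192-5p higher (0.92), and the others did not pass. Of the 15 markers in the 3 lists, miR-122-3p was at 0 in 584 samples, miR-194-5p in 13 and the others in 0.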

How the data were processed

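Plasma miRNA of 899 samples from 196 mice was sequenced, and strain, treatment, time and mouse were read from the labels. The authors left out hemolysed plasma, prepared libraries with a commercial small RNA kit, aligned reads with Illumina's BaseSpace Small RNA application and deposited raw read counts for each mature miRNA. Per the labels, the genome build was mm10. How reads that fit more than 1 miRNA were assigned is not given in the sources used here. Counts of miR-103-3p and miR-107-3p therefore rest on the authors' assignment of reads that differ at 1 base.

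Counts were scaled by TMM (factors 0.372 to 1.59) and tested in R 4.3.3 with edgeR 4.0.16 (quasi-likelihood) for the 483 of 1915 miRNA kept by filterByExpr, in 1 model fitting 32 group means (867 residual degrees of freedom) or 64 with sex (835). Log2 CPM used a prior count of 2. P-values were adjusted by Benjamini-Hochberg within each comparison at a threshold of 0.05. Total counts were 206490 to 11814515 a sample, and 3 reads was taken as the limit that a count of 0 allows. Bleeds of the same mouse pair by the number in the labels. The correlation of deviations between 1962 such pairs was 0.098 for miR-103-3p and 0.014 for miR-107-3p. Alternatives used limma 3.58.1 (voom, mouse blocks, quantile-normalized log2 RPM) and DESeq2 1.42.0. The test was checked on simulated counts. The members and lists were chosen with earlier results of these data known. Named were both members, their opposite arms, 7 relatives, the 5 miRNA most correlated with each member and the markers of red blood cells, leukocytes and liver. Heart and lung tissue was not analysed here.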

Additional observations from a re-analysis of the deposited data

How the results depend on the processing

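Of 687 recomputed values, 624 kept their direction and their side of the threshold. The cause was not tested where a value changed. Low read counts limit the precision of miR-107-3p. DESeq2 was not run for the F tests, and fits of small subsets gave no value for miR-107-3p where the filter on low counts removed it. The 5 libraries of at least 100 miR-107-3p reads were left out after seeing the data.

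For miR-103-3p in C57Bl/6 at day 2 the difference of −0.56 no longer passed with DESeq2 (−0.52), DESeq2 size factors (−0.52), libraries of at least 500000 reads (−0.46), limma-voom (−0.57), no filter (−0.54), only the 2 groups compared (−0.49), quantile-normalized log2 RPM (−0.50), males alone (−0.47), code G1 alone (−0.66) or code G3 alone (−0.26). In C3H at day 5 the difference of −0.59 no longer passed with limma-voom (−0.58), title code and sex as covariates (−0.57), females alone (−0.43), males alone (−0.77), code G4 alone (−0.24) or without the 5 libraries (−0.56, adjusted p = 0.0511, edgeR). In C3H at month 1 the difference of −0.48 no longer passed with quantile-normalized log2 RPM (−0.39), females alone (−0.38), males alone (−0.51), code G2 alone (−0.35), code G4 alone (−0.56) or without the 5 libraries (−0.41, adjusted p = 0.0839, edgeR). The number of comparisons past the threshold for miR-103-3p, 3 of 13, became 1 with limma-voom, quantile-normalized log2 RPM, females alone, the fixed mouse block or without the 5 libraries, and 0 with males alone.

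With the mouse as a fixed replicate block the differences of miR-103-3p were −0.35 in C3H at day 5 and −0.18 at month 1, neither past the threshold, and turned to 0.04 at month 2 and 0.02 at month 4. With the mouse as a random replicate block miR-107-3p in C57Bl/6 at day 5 turned to −0.15, and its strain difference of the irradiation effect passed (adjusted p = 0.0407, limma-voom), as it did in limma-voom without the block (adjusted p = 0.016). The blocks changed no other call.

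The sex difference of miR-103-3p in C3H passed with DESeq2 size factors (0.34) and limma-voom (0.35). The change of miR-107-3p over time in sham C3H mice no longer passed without the 5 libraries (adjusted p = 0.146, edgeR). The day 2 difference of miR-107-3p in C3H moved to −0.56 with females alone.

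Other signs turned, none of them past the threshold on either side. For miR-103-3p in C57Bl/6 before irradiation (0.01) they turned with females alone (−0.07), libraries of at least 500000 reads (−0.002), members summed (−0.01), no filter (−0.02), scaling without red blood cell miRNA (−0.01) and code G1 alone (−0.06), and at month 1 (−0.13) with males alone (0.02) and code G3 alone (0.01). For miR-107-3p in C57Bl/6 they turned at day 5 (0.02) with libraries of at least 500000 reads (−0.09), limma-voom (−0.18), title code and sex as covariates (−0.18), females alone (−0.44) and code G1 alone (−1.38). They also turned with females alone at day 2 (−0.21), month 1 (−0.33) and month 4 (0.43), with quantile-normalized log2 RPM at month 2 (0.06), with code G1 alone before irradiation (0.60) and with limma-voom in the sex difference (−0.13). In C3H they turned before irradiation with males alone (0.18) and code G2 alone (0.14), and at day 5 with code G4 alone (0.05).

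The number of all miRNA past the threshold moved by over 1.5 times in some settings. In C3H mice it went from 24 to between 6 and 42 at day 2, from 15 to between 3 and 33 at day 5, from 16 to between 3 and 47 at month 1, from 3 to between 1 and 17 at month 2, from 10 to between 0 and 68 at month 3, from 2 to between 0 and 41 at month 4. In C57Bl/6 mice it went from 32 to between 5 and 71 at day 2, from 68 to between 18 and 104 at day 5, from 18 to between 1 and 75 at month 1, from 16 to between 1 and 49 at month 2, from 8 to between 4 and 33 at month 3, from 23 to between 9 and 67 at month 4, from 17 to between 8 and 51 at month 5, from 2 to between 1 and 61 at month 6. Before irradiation it was 31 in C3H and 37 in C57Bl/6 without the filter, against 0. It went from 21 to between 5 and 207 for the strain difference of the effect, from 2 to between 1 and 39 and from 26 to between 15 and 97 for the sex difference of the effect in C3H and C57Bl/6, the highest of each without the filter. Without the filter it also went to 534 from 265 for the strain difference in sham mice, to 543 from 222 and 714 from 304 for the changes over time, and to 114 from 71 for the sex difference before irradiation in C57Bl/6, and passed 1.5 times the count of 70 for the same difference in C3H.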
